A study of Mus musculus with 23 samples.

Results

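Interferon response genes are the antiviral and immune genes that cells switch on when an interferon binds its receptor, and 40 of them, chosen by gene symbol, are described here in adult mouse intestinal epithelium. Symbols were looked up in both of the authors' deposited tables, where 39 of the 40 were found among 22517 named genes, and Ifi27 was not measured. RNA sequencing covered 3 groups of 3 libraries from the proximal intestine of mice on a mixed B6;129 background. Eed-null villus came from EedF/F mice with a tamoxifen-inducible Villin-CRE, control villus (wild-type villus below) from EedF/F mice without Cre, and GFP-high sorted Lgr5+ intestinal stem cells (ISC) from Eed+/+ mice carrying an Lgr5-EGFP-IRES-CREERT2 allele. Tamoxifen (1 to 2 mg on 5 days) was given for all 9 libraries, and the labels give no age or sex. Eed is a subunit of Polycomb repressive complex PRC2, which writes the repressive histone mark H3K27me3, and Villin drives Cre in epithelial cells and not in the leukocytes that lie among them.

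Interferons alpha and beta share a receptor made of Ifnar1 and Ifnar2, whereas the lambda interferons, to which gut epithelium is known to respond strongly, use Ifnlr1 with Il10rb. Both receptors activate Stat2, which acts with Irf9 in a complex that binds the interferon-stimulated response element (ISRE) of target promoters. Interferon gamma acts through Ifngr1 and Ifngr2, and promoters of its target genes often carry the gamma-activated site (GAS).

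The tables hold 1 RPKM value per group (reads per kilobase of transcript, scaled to the reads of the library), so no spread among the 3 libraries of a group can be given, and library depth is unknown. The authors' q, a p-value adjusted over all tested genes of a table, is the only measure of error, and genes with status OK and q at or below 0.05 count as called. All 39 measured genes were tested in both tables. The tables were scaled separately: wild-type villus values of the villus and ISC table are 1.16193 times those of the Eed-null table. The 2 comparisons share the wild-type villus libraries and are not independent. Eed itself had 3.00 RPKM in Eed-null villus against 9.17 RPKM in wild-type villus, with q = 6.29e-06 per the authors' deposited table. All 12 enterocyte markers had called excesses in villus, and all 10 stem cell markers in ISC.

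The promoters of 29 of the 39 measured genes are in RefSeq's table for build GRCm38.p6, as windows from 250 bases before to 50 after an annotated start. They were searched for an ISRE core, which is GAAA, any 2 bases and GAAA again on either strand, and for a GAS core, TTCNNNGAA, which is its own reverse complement. Both searches allowed overlapping matches. An ISRE core was present in 17 of the 34 member windows (50%) against 3.44% of all 32851 windows, and a GAS core in 9 (26.5%) against 8.3% of all windows. Windows of 8 genes held neither, among them Irf7, Irf9, Oasl1 and Ifi44. These matches describe the letters only, and the files analysed here hold no binding data.

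The promoters of 8 members are shown because they carry the contrasts described below, as the 160 bases before the start on the gene's strand, with ISRE cores (for Irf1, the GAS core) in capitals. Capitals that begin with TTTC mark an ISRE core on the opposite strand. Isg15, Ifit1, Rsad2 and Gbp2 were called higher in Eed-null villus, Ifit3 and Oas3 were not called there, Ifitm2 was called higher in ISC, and Irf1 has a GAS core and no ISRE core. Not shown are Ifit2, Ifi44, Oasl1 and Xaf1, which were also called higher in Eed-null villus but have no ISRE core in their windows.
Isg15, chr4:156200819-156200978, minus strand: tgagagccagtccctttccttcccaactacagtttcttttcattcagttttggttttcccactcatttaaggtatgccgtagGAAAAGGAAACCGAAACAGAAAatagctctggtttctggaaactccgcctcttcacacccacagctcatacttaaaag
Ifit1, chr19:34640729-34640888, plus strand: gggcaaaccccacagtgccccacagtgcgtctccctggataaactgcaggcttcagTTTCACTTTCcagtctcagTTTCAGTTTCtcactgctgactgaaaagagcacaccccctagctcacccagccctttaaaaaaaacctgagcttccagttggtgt
Rsad2, chr12:26456453-26456612, minus strand: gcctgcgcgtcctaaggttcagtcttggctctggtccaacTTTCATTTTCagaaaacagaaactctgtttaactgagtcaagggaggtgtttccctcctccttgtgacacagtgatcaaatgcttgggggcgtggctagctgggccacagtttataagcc
Gbp2, chr3:142620503-142620662, plus strand: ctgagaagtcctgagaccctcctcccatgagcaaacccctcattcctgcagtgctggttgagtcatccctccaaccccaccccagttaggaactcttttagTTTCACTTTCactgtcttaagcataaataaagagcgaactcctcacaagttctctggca
Ifit3, chr19:34583369-34583528, plus strand: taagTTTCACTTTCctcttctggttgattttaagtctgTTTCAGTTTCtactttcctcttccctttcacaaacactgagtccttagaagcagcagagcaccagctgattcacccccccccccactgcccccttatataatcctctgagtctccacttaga
Oas3, chr5:120777660-120777819, minus strand: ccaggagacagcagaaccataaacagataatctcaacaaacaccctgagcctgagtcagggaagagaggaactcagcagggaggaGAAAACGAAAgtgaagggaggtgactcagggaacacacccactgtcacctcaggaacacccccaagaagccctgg
Ifitm2, chr7:140955962-140956121, minus strand: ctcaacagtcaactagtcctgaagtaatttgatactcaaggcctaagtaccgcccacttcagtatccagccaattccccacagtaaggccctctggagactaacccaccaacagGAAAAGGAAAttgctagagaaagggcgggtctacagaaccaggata
Irf1, chr11:53769854-53770013, plus strand: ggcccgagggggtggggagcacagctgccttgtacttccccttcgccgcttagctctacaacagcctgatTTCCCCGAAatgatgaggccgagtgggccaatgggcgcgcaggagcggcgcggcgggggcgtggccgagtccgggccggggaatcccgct
In Isg15, 3 overlapping cores lay between 78 and 57 bases before the start. The cores of Ifit1 and of Ifit3, 2 in each, began 104 and 85 bases and 156 and 122 bases before their starts. Both genes of this pair have ISRE cores, although only Ifit1 was called between Eed-null and wild-type villus.

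**Figure D1:**
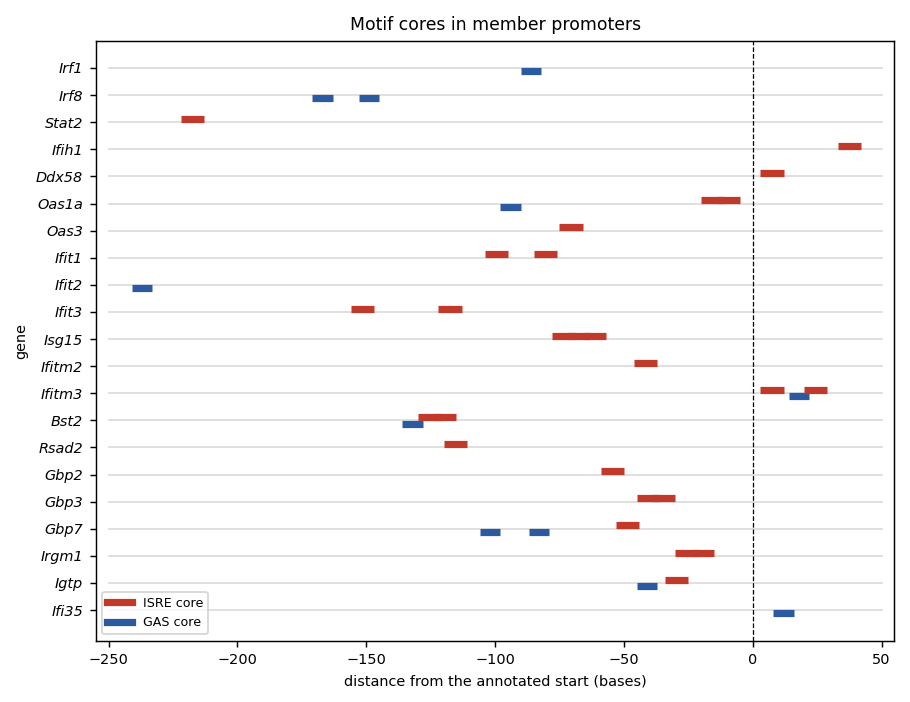
Positions of ISRE cores (red) and GAS cores (blue) in the windows of member genes that hold at least 1, drawn as distance in bases from the annotated start (dashed line). ISRE cores of Isg15, Gbp2, Gbp3, Gbp7, Irgm1 and Oas1a lie within 80 bases before the start, whereas those of Ddx58, Ifih1 and Ifitm3 lie after it.

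Wild-type villus had much higher levels of most interferon response genes than ISC. Of the 39, 33 were called higher in villus per the authors' deposited table, a call that 30.5% of all 13007 tested genes received (62.8% were called in either direction). Ifitm2 and Ifitm3 went the other way and were called higher in ISC, a direction called in 32.3% of all tested genes, and Irf8, Ifitm1, Gbp6 and Irgm1 were not called. The 33 genes were 1.96-fold to 256-fold higher in villus, with a median of 9.87-fold, and 16 exceeded 10-fold. Over all 39, the median difference of log2(RPKM + 1), villus minus ISC, was 2.31, against -0.06 over all tested genes.

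**Figure D2:**
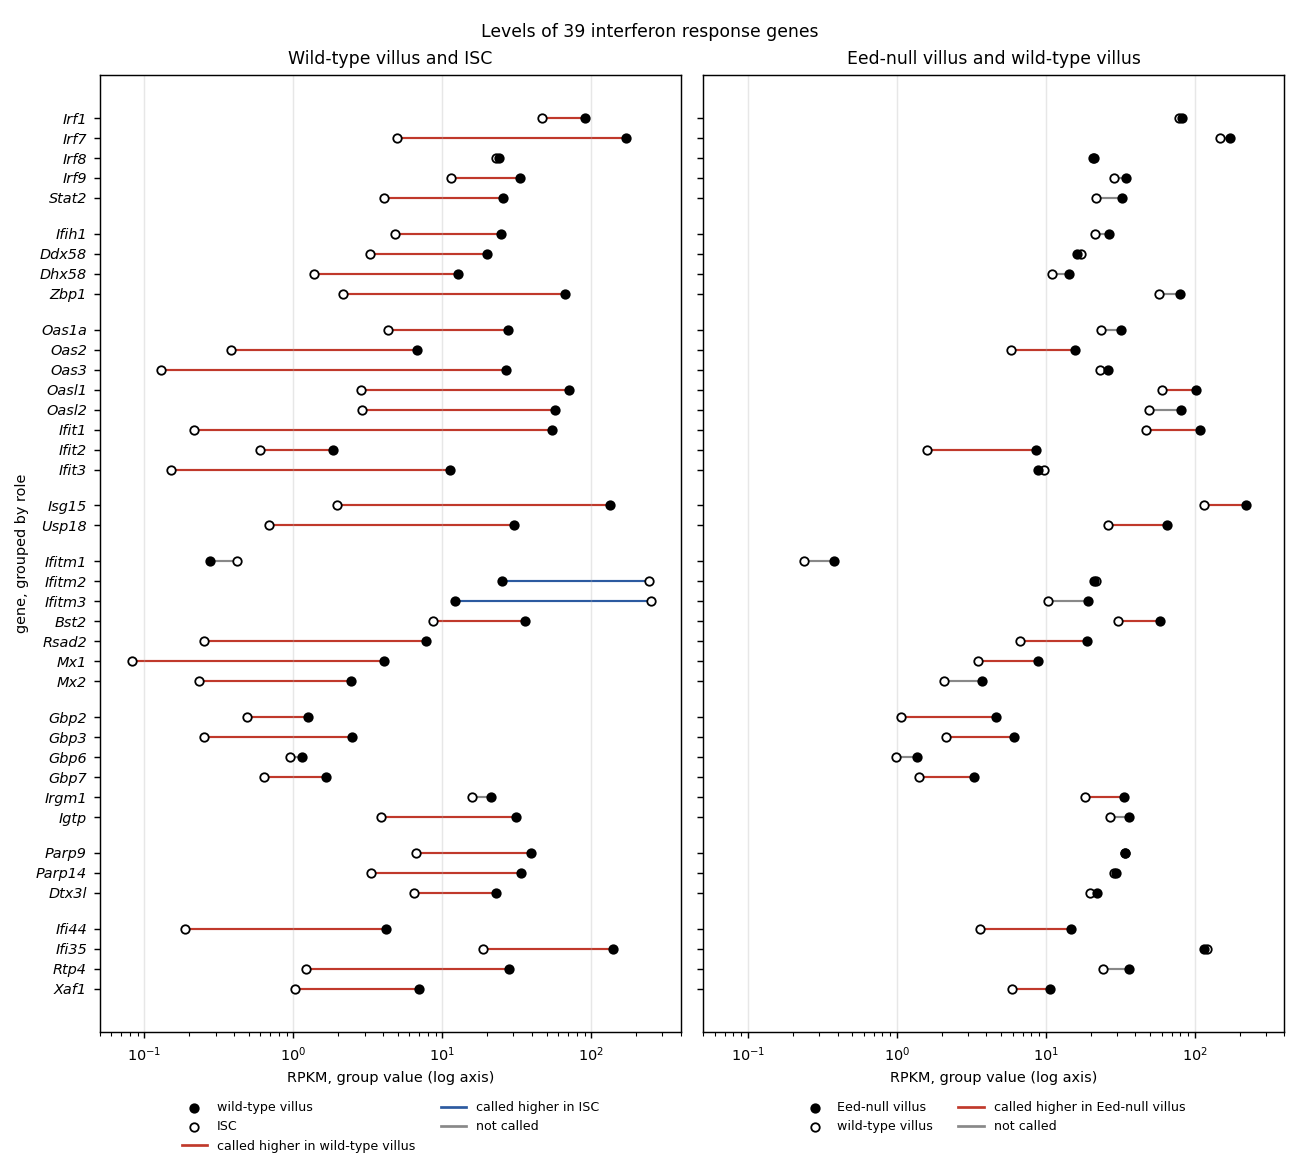
RPKM on a log axis for each of the 39 measured genes, with wild-type villus (filled) and ISC (open) on the left and Eed-null villus (filled) and wild-type villus (open) on the right; lines join the group values and are coloured by the call. On the left, filled points lie to the right of open ones in 36 genes, with Ifitm1, Ifitm2 and Ifitm3 the reverse; on the right the gaps are smaller, with the widest in Ifit2, Gbp2 and Ifi44.

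Among the transcription factors, Irf7, which drives interferon genes themselves, had 172 in villus against 4.98 RPKM in ISC (34.6-fold, q listed as 0 per the authors' deposited table). Stat2 had 25.4 in villus against 4.08 RPKM in ISC, and its partner Irf9 had 33.4 in villus against 11.5 RPKM in ISC, both called. Irf1, a factor induced by interferon gamma, had 91.0 in villus against 46.5 RPKM in ISC, the smallest ratio of RPKM values among the 33 at 1.96-fold (q = 0.000391 per the authors' deposited table). Irf8, best known from myeloid cells, stood at 24.1 in villus against 22.8 RPKM in ISC and was not called (q = 0.777 per the authors' deposited table). The factors of the response thus ranged from near-equal levels to the 34.6-fold gap of Irf7.

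All 4 nucleic acid sensors were called higher in villus. Zbp1, a sensor of Z-form nucleic acid that can trigger necroptosis, had 66.7 in villus against 2.13 RPKM in ISC (31.2-fold per the authors' deposited table). The cytosolic RNA helicases followed with smaller gaps. Ifih1, encoding MDA5, had 24.9 in villus against 4.83 RPKM in ISC. Ddx58, encoding RIG-I, had 20.0 in villus against 3.25 RPKM in ISC. Dhx58, a helicase that modulates both, had 12.8 in villus against 1.37 RPKM in ISC.

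The OAS enzymes, which make oligoadenylates that activate RNase L, and the IFIT proteins, which bind foreign RNA, were called higher in villus without exception, 8 of 8. Ifit1 had 54.6 in villus against 0.213 RPKM in ISC, the largest ratio of the whole set at 256-fold, and Oas3 had 26.9 in villus against 0.129 RPKM in ISC (209-fold), both with q listed as 0 per the authors' deposited table. Ifit3 was 74.3-fold higher, at 11.2 in villus against 0.151 RPKM in ISC. These large ratios rest on ISC levels well below 1 RPKM. The OAS-like genes had more RNA than Ifit1, Oas3 and Ifit3 in both populations. Oasl1, which in mice restrains translation of Irf7, had 70.5 in villus against 2.85 RPKM in ISC, and Oasl2 56.9 in villus against 2.87 RPKM in ISC. Oas1a had 27.5 in villus against 4.30 RPKM in ISC, and Oas2 had 6.79 in villus against 0.382 RPKM in ISC. Ifit2 had the smallest gap of the group, with 1.85 in villus against 0.597 RPKM in ISC (q = 0.000815 per the authors' deposited table). Members of these families resemble one another in sequence, and the sources used here do not state how reads that fit several copies were assigned.

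Isg15, a ubiquitin-like protein that is attached to other proteins, had 134 in villus against 1.96 RPKM in ISC (68.0-fold). Usp18, the protease that removes Isg15 and also dampens signalling at the interferon alpha and beta receptor, had 30.4 in villus against 0.684 RPKM in ISC (44.4-fold, q listed as 0 per the authors' deposited table). The modifier and its protease thus had similarly large gaps.

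Proteins that act on viral membranes and particles divided. Ifitm3 and Ifitm2, which hinder fusion of viral and cellular membranes and are also known to be expressed in stem cells without added interferon, were the exceptions. Ifitm3 had 12.1 in villus against 251 RPKM in ISC, 20.8-fold higher in ISC, and Ifitm2 had 25.2 in villus against 243 RPKM in ISC, 9.65-fold higher in ISC, both with q listed as 0 per the authors' deposited table. In ISC these were the most abundant of the 39 genes. Ifitm1, which lies between them on chromosome 7, had 0.276 in villus against 0.416 RPKM in ISC and was not called (q = 0.665 per the authors' deposited table). The other members of this group followed the majority. Rsad2, encoding viperin, had 7.75 in villus against 0.252 RPKM in ISC, and Bst2, encoding tetherin, which holds budding particles at the cell surface, had 35.7 in villus against 8.60 RPKM in ISC. Of the dynamin-like GTPase genes, Mx1 had 4.07 in villus against 0.0829 RPKM in ISC, and Mx2 had 2.43 in villus against 0.232 RPKM in ISC.

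Among the interferon-inducible GTPases, which attack the vacuoles of intracellular pathogens, 4 of 6 were called higher in villus. Igtp had 31.2 in villus against 3.89 RPKM in ISC (8.04-fold per the authors' deposited table). Irgm1, a regulator of the other immunity-related GTPases, had 21.2 in villus against 15.9 RPKM in ISC and was not called (q = 0.156 per the authors' deposited table). The guanylate-binding genes were low in both populations. Gbp2 had 1.24 in villus against 0.490 RPKM in ISC, Gbp3 had 2.47 in villus against 0.251 RPKM in ISC, and Gbp7 had 1.65 in villus against 0.630 RPKM in ISC, all called. Gbp6, from a separate cluster on chromosome 5, had 1.14 in villus against 0.944 RPKM in ISC and was not called (q = 0.597 per the authors' deposited table).

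All 3 genes of ADP-ribosylation were called higher in villus. Parp14, a mono-ADP-ribosyltransferase, had 33.6 in villus against 3.30 RPKM in ISC. Parp9 had 39.5 in villus against 6.66 RPKM in ISC, and the ubiquitin ligase gene Dtx3l, whose protein acts as its partner, had 23.0 in villus against 6.43 RPKM in ISC. Parp9 and Dtx3l share a locus entry in the tables and their libraries carry no strand, so their reads cannot be assigned with certainty. The remaining 4 measured genes were called higher in villus as well. Ifi35 had 140.0 in villus against 18.8 RPKM in ISC, and Rtp4, a receptor transport protein, had 28.2 in villus against 1.22 RPKM in ISC. Ifi44 had 4.19 in villus against 0.187 RPKM in ISC, and Xaf1, a pro-apoptotic binder of XIAP, had 6.95 in villus against 1.03 RPKM in ISC.

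Other genes of the pathway are read against the 30.5% of all tested genes called higher in villus and the 32.3% called higher in ISC. All 6 measured receptor genes were called higher in villus, led in fold by Ifnlr1, the lambda receptor subunit, at 11.9 in villus against 1.02 RPKM in ISC, with q listed as 0 per the authors' deposited table. Its partner Il10rb had 109.5 in villus against 11.5 RPKM in ISC, the gamma receptor gene Ifngr2 had 166 in villus against 38.8 RPKM in ISC, and Ifnar2 had 16.6 in villus against 4.73 RPKM in ISC. The ligands were another matter, since none of 19 measured interferon genes was tested. Of these, 17 are listed at 0 in villus and 17 in ISC, and Ifng had 0.0311 in villus against 0.221 RPKM in ISC.

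Of 8 tested JAK-STAT genes and partner factors, 5 were called higher in villus and 1 in ISC. Stat3 had 39.8 in villus against 9.32 RPKM in ISC. Irf2 had 29.9 in villus against 14.4 RPKM in ISC, and the kinase gene Tyk2 had 11.9 in villus against 7.55 RPKM in ISC. Irf5 was the gene called higher in ISC, at 0.162 in villus against 0.548 RPKM in ISC. Of 10 tested sensing and adaptor genes, 6 were called higher in villus and 2 in ISC. The adaptor gene Ticam1 had 32.3 in villus against 6.93 RPKM in ISC. The kinase gene Tbk1 had 46.2 in villus against 13.3 RPKM in ISC. The ubiquitin ligase gene Trim25 had 50.8 in villus against 16.5 RPKM in ISC. Mb21d1, which encodes the DNA sensor cGAS, was called higher in ISC, at 0.625 in villus against 3.39 RPKM in ISC (q = 2.41e-10 per the authors' deposited table).

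Of 29 tested interferon-induced genes outside the 39, 24 were called higher in villus and none in ISC. Apol9a had 32.6 in villus against 0.324 RPKM in ISC, and its near copy Apol9b had 29.5 in villus against 0.293 RPKM in ISC, both with q listed as 0 per the authors' deposited table. Ube2l6, which encodes an enzyme that conjugates Isg15, had 100.4 in villus against 3.65 RPKM in ISC. Of 17 tested antigen presentation and chemokine genes, 13 were called higher in villus and none in ISC. Of 8 tested negative regulators, a list that also holds the antiviral exonuclease gene Isg20, 3 were called higher in villus and 1 in ISC, a share in villus near that of all tested genes. Among those 3 was the feedback inhibitor gene Socs3 at 23.7 in villus against 8.32 RPKM in ISC.

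Villus was frozen directly and came from EedF/F mice without Cre, whereas ISC were dissociated enzymatically, sorted by GFP and came from Eed+/+ mice with the Lgr5-EGFP-IRES-CREERT2 allele, so cell type, handling and genotype cannot be told apart. Leukocyte markers moved along with the comparison: 9 of 14 tested were called higher in villus and 1 in ISC. Summed levels of the 21 measured markers were 308 in villus against 269 RPKM in ISC. Without the most abundant marker, Cd74 (181 in villus against 235 RPKM in ISC, not called), the sums were 127 in villus against 33.8 RPKM in ISC. None of the 21 is listed at 0 in either group. Markers of other epithelial cells differed as well: all 4 tested Paneth markers and 4 of 7 enteroendocrine markers were called higher in ISC. Among them were Mmp7 at 56.3 in villus against 321 RPKM in ISC and Neurog3 at 0.663 in villus against 15.4 RPKM in ISC. Of the other enteroendocrine markers, 2 were not called and 1, Sct, was called higher in villus, at 111 in villus against 19.2 RPKM in ISC. All 6 measured tuft markers were called higher in villus. The part of these markers in the result was not tested, and in these bulk libraries fewer cells of a type cannot be told apart from less RNA per cell.

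Eed-null villus had higher levels of a subset of the same 39 genes than wild-type villus. Per the authors' deposited table, 15 were called higher, a call that 7.9% of all 12525 tested genes received, and none was called lower, against 3.46% of tested genes (11.4% were called in either direction). At an unadjusted p under 0.05, 20 of the 39 were higher, as were 12.3% of all tested genes, and 0 were lower, against 8.82% of tested genes. The 15 genes were 1.68-fold to 5.38-fold higher in Eed-null villus, with a median of 2.48-fold. Of the other 24, 19 had higher and 5 lower values in Eed-null villus, from 0.917-fold to 1.85-fold with a median of 1.23-fold. Over all tested genes, called or not, 42.3% had higher values in Eed-null villus. The median difference of log2(RPKM + 1) over the 39, Eed-null minus wild-type, was 0.55, against -0.06 over all tested genes.

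**Figure D3:**
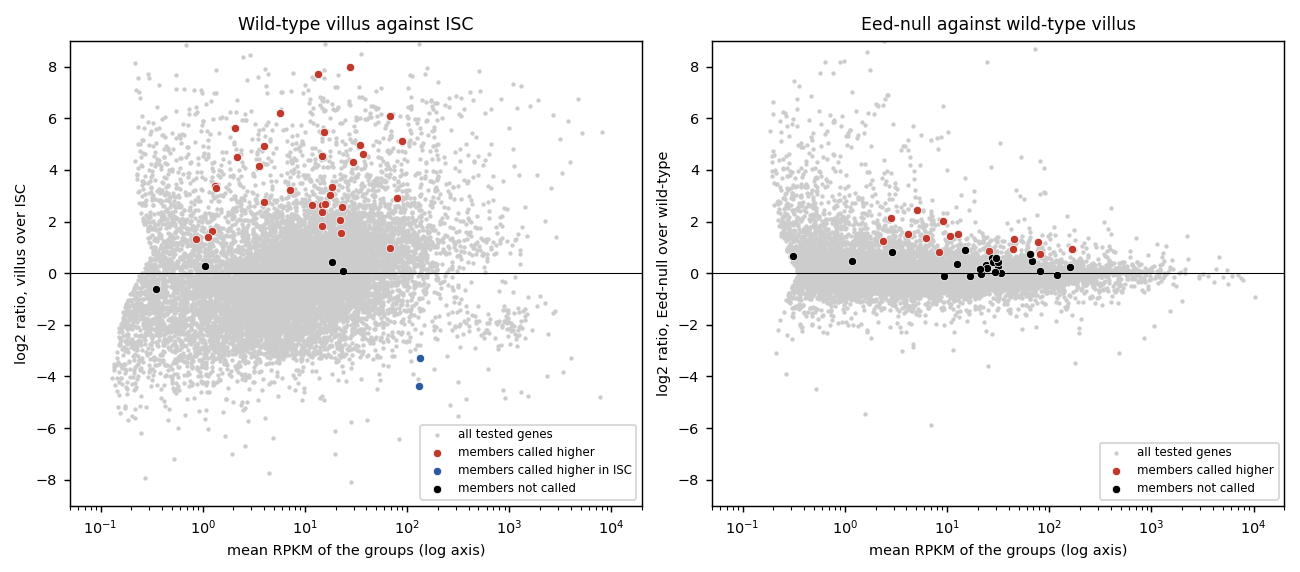
Log2 ratio of the group values against the mean RPKM of the groups (log axis) for all tested genes above 0 in both groups (grey) and for members, coloured by the call; left, wild-type villus over ISC, right, Eed-null over wild-type villus. Axes stop at a log2 ratio of 9 either way, beyond which lie 15 tested genes on the left and 3 on the right. Members stand mostly above 0 in both panels, over a wide range of levels.

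None of the 5 transcription factors was called between Eed-null and wild-type villus. Stat2 came nearest, at 32.7 in Eed-null against 21.8 RPKM in wild-type villus (q = 0.0922 per the authors' deposited table). Irf7 had 173 in Eed-null against 148 RPKM in wild-type villus, Irf9 had 34.7 in Eed-null against 28.7 RPKM in wild-type villus, and Irf1 had 82.5 in Eed-null against 78.3 RPKM in wild-type villus. Irf8 was nearly level, at 20.9 in Eed-null against 20.8 RPKM in wild-type villus. The 4 sensors were not called either. Zbp1 had 79.3 in Eed-null against 57.4 RPKM in wild-type villus (q = 0.464 per the authors' deposited table). Ifih1 had 26.6 in Eed-null against 21.4 RPKM in wild-type villus, Dhx58 had 14.2 in Eed-null against 11.0 RPKM in wild-type villus, and Ddx58 had 16.1 in Eed-null against 17.2 RPKM in wild-type villus.

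Of the 3 IFIT genes, 2 were called higher in Eed-null villus. Ifit2 had 8.57 in Eed-null against 1.59 RPKM in wild-type villus, the largest ratio of the set at 5.38-fold, with q = 8.67e-13 per the authors' deposited table. Ifit1 had 108 in Eed-null against 47.0 RPKM in wild-type villus (2.31-fold, q = 5.78e-05 per the authors' deposited table). Ifit3 lies between them in a 99.3 kb stretch of chromosome 19 (mm9) and had 8.88 in Eed-null against 9.68 RPKM in wild-type villus, with q = 0.894 per the authors' deposited table. The difference between neighbours was not itself tested.

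Of the 5 OAS and OAS-like genes, Oas2 and Oasl1 were called higher. Oas2 had 15.7 in Eed-null against 5.84 RPKM in wild-type villus (2.68-fold, q = 6.47e-05 per the authors' deposited table). Its neighbours on chromosome 5 were not called: Oas3 had 26.3 in Eed-null against 23.2 RPKM in wild-type villus, and Oas1a had 32.2 in Eed-null against 23.6 RPKM in wild-type villus. Oasl1 had 102 in Eed-null against 60.7 RPKM in wild-type villus (q = 0.0162), and Oasl2 had 80.9 in Eed-null against 49.0 RPKM in wild-type villus (q = 0.0563), so these adjacent genes fall on either side of the threshold in the authors' deposited table with ratios of 1.68 and 1.65.

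Both genes of the Isg15 system were called higher in Eed-null villus. Isg15 was the most abundant of the 39 genes there, at 219 in Eed-null against 115 RPKM in wild-type villus (1.91-fold, q = 0.00324 per the authors' deposited table). Usp18 had 65.0 in Eed-null against 26.2 RPKM in wild-type villus (2.48-fold, q = 1.28e-05 per the authors' deposited table).

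Among genes acting on viral membranes and particles, Rsad2, Mx1 and Bst2 were called higher in Eed-null villus. Rsad2 had 19.0 in Eed-null against 6.67 RPKM in wild-type villus (2.85-fold, q = 2.59e-07 per the authors' deposited table). Mx1 had 8.90 in Eed-null against 3.50 RPKM in wild-type villus (q = 0.00348), and Bst2 had 58.2 in Eed-null against 30.7 RPKM in wild-type villus (q = 0.014 per the authors' deposited table). Mx2, next to Mx1 on chromosome 16, had 3.71 in Eed-null against 2.09 RPKM in wild-type villus and was not called (q = 0.126 per the authors' deposited table). Of the IFITM genes, Ifitm3 had the highest ratio among all uncalled members, with 19.2 in Eed-null against 10.4 RPKM in wild-type villus (q = 0.0645 per the authors' deposited table). Ifitm2 had 21.2 in Eed-null against 21.7 RPKM in wild-type villus, and Ifitm1 had 0.378 in Eed-null against 0.237 RPKM in wild-type villus.

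The GTPases had the most calls for their number after the Isg15 system, with 4 of 6 called higher in Eed-null villus. Gbp2 had 4.64 in Eed-null against 1.07 RPKM in wild-type villus (4.34-fold, q = 7.99e-07 per the authors' deposited table). Its neighbours lie within 108 kb of chromosome 3 (mm9). Gbp3 had 6.14 in Eed-null against 2.13 RPKM in wild-type villus, and Gbp7 had 3.32 in Eed-null against 1.42 RPKM in wild-type villus (q = 9.95e-05 and q = 0.00112 per the authors' deposited table). This was the only one of 7 clusters of neighbouring members, with gaps of at most 250 kb, in which all members were called. The stretch also holds related genes that are not members and were not tested. Gbp2b, between Gbp3 and Gbp2, had 0.0172 in Eed-null against 0.0177 RPKM in wild-type villus. Gbp5, beside Gbp7, had 0.196 in Eed-null against 0.107 RPKM in wild-type villus. Irgm1, which was not called between villus and ISC, had 33.4 in Eed-null against 18.3 RPKM in wild-type villus (1.83-fold, q = 0.0115 per the authors' deposited table). Igtp had 35.9 in Eed-null against 26.9 RPKM in wild-type villus, and Gbp6 had 1.37 in Eed-null against 0.981 RPKM in wild-type villus, neither called.

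The 3 ADP-ribosylation genes were close to level. Parp9 had 33.8 in Eed-null against 34.0 RPKM in wild-type villus, Parp14 had 29.8 in Eed-null against 28.9 RPKM in wild-type villus, and Dtx3l had 22.2 in Eed-null against 19.8 RPKM in wild-type villus, with q from 0.88 to 0.996 in the authors' deposited table. Among the remaining genes, Ifi44 had 14.7 in Eed-null against 3.60 RPKM in wild-type villus (4.08-fold, q = 5.89e-08 per the authors' deposited table). Xaf1 had 10.6 in Eed-null against 5.98 RPKM in wild-type villus (q = 0.0259 per the authors' deposited table). Rtp4 had 36.0 in Eed-null against 24.2 RPKM in wild-type villus, and Ifi35 had 115 in Eed-null against 120.5 RPKM in wild-type villus, neither called.

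Calls were spread over the range of levels. Of the 20 members whose mean over both villus groups was at or below 24.0 RPKM, their median, 9 were called higher in Eed-null villus (45%), and of the 19 above it 6 were (31.6%). Among all tested genes with means no lower than the lowest member's, 8.26% at or below that level and 4.41% above it were called higher. The median ratio was 1.78 in the lower and 1.38 in the upper set of members. An ISRE core was present in 8 of 14 promoter windows, from 12 genes, of members called higher in Eed-null villus (57.1%). Of members not called, 9 of 20 windows, from 17 genes, held one (45%), and the difference was not tested.

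Put on the scale of the villus and ISC table, levels can be set side by side over the 3 groups, as a description with no test between Eed-null villus and ISC. Isg15 stood at 255 RPKM in Eed-null villus, 134 RPKM in wild-type villus and 1.96 RPKM in ISC. Ifit2 stood at 9.96 RPKM in Eed-null villus, 1.85 RPKM in wild-type villus and 0.597 RPKM in ISC. Ifitm3 kept another order, with 22.3 RPKM in Eed-null villus, 12.1 RPKM in wild-type villus and 251 RPKM in ISC.

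Other genes of the pathway are read against the 7.9% of all tested genes called higher in Eed-null villus. None of the 6 receptor genes was called, and Ifnlr1 had 11.6 in Eed-null against 10.2 RPKM in wild-type villus (q = 0.775 per the authors' deposited table). None of the 19 ligand genes was tested, and 15 are listed at 0 in Eed-null villus. Ifng had 0.00984 in Eed-null against 0.0267 RPKM in wild-type villus. Irf5, which acts downstream of Toll-like receptors, was the 1 of 9 tested JAK-STAT and partner genes called higher, at 0.616 in Eed-null against 0.140 RPKM in wild-type villus (q = 0.0089 per the authors' deposited table). Of 10 sensing and adaptor genes, 1 was called higher. The shares of both lists are near that of all tested genes.

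Both SOCS genes were called higher in Eed-null villus, the only such calls among 8 tested negative regulators. Socs3 had 48.0 in Eed-null against 20.4 RPKM in wild-type villus (q = 7.42e-06), and Socs1 had 8.35 in Eed-null against 4.02 RPKM in wild-type villus (q = 0.0255 per the authors' deposited table). Of 30 tested interferon-induced genes outside the 39, 5 were called higher and none lower. Among them were Tor3a at 8.61 in Eed-null against 4.14 RPKM in wild-type villus, Apol9a at 48.0 in Eed-null against 28.1 RPKM in wild-type villus, and Ddx60, a relative of the RNA helicase sensors, at 38.1 in Eed-null against 23.4 RPKM in wild-type villus (q = 0.0478 per the authors' deposited table). Of 18 antigen presentation and chemokine genes, Cxcl10 and Nlrc5 were called higher, a share near the 7.9% of all tested genes. The median ratio of this list was 1.01. Cxcl10, a chemokine that attracts T cells, had 7.02 in Eed-null against 1.25 RPKM in wild-type villus (q = 0.000964 per the authors' deposited table) and shares its locus entry with 2 other genes. Nlrc5, which activates MHC class I genes, had 2.05 in Eed-null against 0.970 RPKM in wild-type villus (q = 0.0136 per the authors' deposited table).

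**Figure D4:**
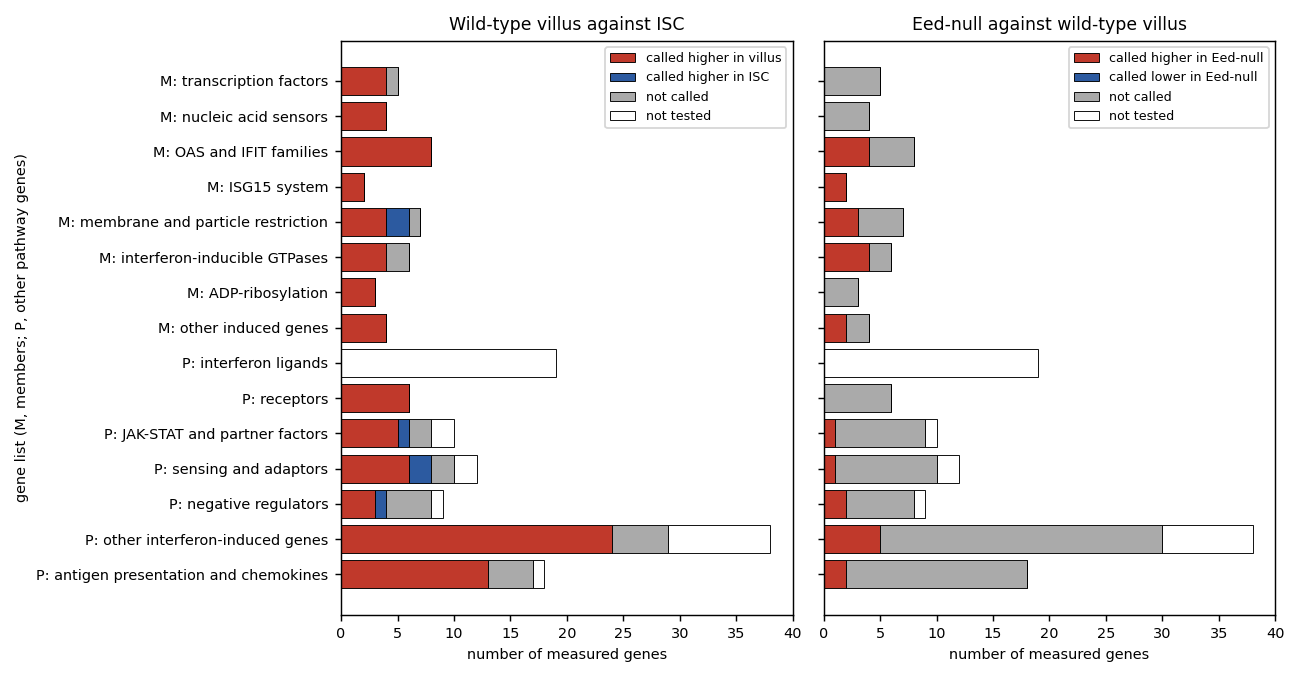
Number of measured genes in each list of members (M) and of other pathway genes (P) that were called higher (red), called lower or higher in ISC (blue), not called (grey) or not tested (white); left, wild-type villus against ISC, right, Eed-null against wild-type villus. The receptor bar is wholly red on the left and wholly grey on the right, and the bar of the 19 ligand genes is white in both.

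Markers of other cells also moved between Eed-null and wild-type villus. Their counts of higher values are read against the 42.3% of all tested genes with higher values in Eed-null villus. Of 13 tested leukocyte markers, 4 had higher values in Eed-null villus and none was called higher. Gzmb was called lower, with 10.6 in Eed-null against 18.7 RPKM in wild-type villus, and the summed level of the 21 measured markers was 379 in Eed-null against 265 RPKM in wild-type villus. The most abundant marker, Cd74, had 304 in Eed-null against 156 RPKM in wild-type villus and was not called. Without Cd74 the sums were 75.3 in Eed-null against 109 RPKM in wild-type villus, and no marker is listed at 0 in Eed-null villus. Gzma was the largest part of these sums, at 37.6 in Eed-null against 59.9 RPKM in wild-type villus. Myeloid markers were mixed and not called. Lyz2 had 8.14 in Eed-null against 4.71 RPKM in wild-type villus, and Cd68 had 0.820 in Eed-null against 0.504 RPKM in wild-type villus. Itgam was lower, at 0.967 in Eed-null against 1.46 RPKM in wild-type villus. All 7 goblet markers had higher values in Eed-null villus, 3 of them called, and their sums were 17427 in Eed-null against 11811 RPKM in wild-type villus. Of 6 tested Paneth markers, 4 had higher values in Eed-null villus, while Lyz1 and Defa24 had lower ones. Only Ang4 was called, higher at 1852 in Eed-null against 903 RPKM in wild-type villus (q = 0.00202). Of 9 tested stem cell markers, 6 had higher values in Eed-null villus, none of them called. Only Olfm4 was called, lower at 40.6 in Eed-null against 94.5 RPKM in wild-type villus (q = 6.18e-06 per the authors' deposited table). Of 12 enterocyte markers, 2 were called lower, with sums of 28484 in Eed-null against 38121 RPKM in wild-type villus. The part of these shifts in the result was not tested, and Cre activity and loss of Eed cannot be told apart in this design.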

How the data were processed

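RNA of 9 libraries (3 groups of 3) was analysed, and the 14 chromatin immunoprecipitation and input libraries were not analysed here. Per the file headers, the authors' values are RPKM in the villus and ISC table; the header of the other table has no unit, and RPKM was inferred there because wild-type villus values differ between tables by a factor of 1.16192 to 1.16194 over 10353 genes. Bowtie, TopHat2 2.0.6, Cuffdiff, Cufflinks 2.0.1 and build mm9 are named, without roles, per the submitters' processing notes, and no annotation is stated. Each gene's p-value and q-value were deposited by the authors, and this q equals a Benjamini-Hochberg adjustment over tested genes to within 2.12e-06. Folds are ratios of deposited RPKM without a pseudocount, and differences use log2(RPKM + 1). Only 1 value per group is deposited, so no model was fitted. The labels call the libraries biological replicates.

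Members and lists were chosen with earlier results of these data known. All members were named; of each pathway list, up to 4 called genes with the largest difference, and some that qualify are not reported here. Mb21d1, Irf5 between villus and ISC, Ifng, Psmb8, Isg20 and the cell markers named were chosen after their values were seen, as were the split by level, the clusters and the promoters shown. Promoter sequences are RefSeq's on GRCm38.p6 and other coordinates those of the files on mm9. Python 3.11.15 and pandas 2.3.3 were used, and the adjustment was tested on simulated data.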

Additional observations from a re-analysis of the deposited data

How the results depend on the processing

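Calls rest on the authors' q, so centring ratios on the median of expressed genes (both groups at 1 RPKM or above) could not change them. Leaving out genes below 1 RPKM in the higher group or genes that share a locus entry could remove only members not called between Eed-null and wild-type villus (Ifitm1, or Parp9 and Dtx3l), so the counts of 15 higher and 0 lower there were fixed by construction. Between villus and ISC, leaving out shared locus entries gave 31 members called higher in villus, against 33 with them. The share of all tested genes called so was 32.3% without these entries and 30.5% with them. Recomputing q over genes at 1 RPKM or more in the higher group gave 15 called higher in Eed-null villus, and 33 in villus and 2 in ISC. The shares of all tested genes called so were then 6.82%, 32.6% and 33.1%. With q at or below 0.01, 11 members were called higher in Eed-null villus, as were 5.8% of all tested genes, with Oasl1, Bst2, Irgm1 and Xaf1 lost. Against ISC, 32 members were called higher in villus at that threshold, as were 26.7% of all tested genes, with Gbp2 lost. The stricter threshold itself accounts for these losses. The median ratio of those expressed genes was -0.10 (log2) between Eed-null and wild-type villus and 0.02 between villus and ISC. Median differences of members ranged from 0.55 to 0.64 and from 2.29 to 2.89 over pseudocounts, filters and centring. Leaving out single libraries was not run, since the tables hold 1 value per group. No paired analysis was possible because the tables give no value per library. With depth unknown, values below 1 RPKM, as in ISC for Ifit1, Oas3 and Mx1, carry an unknown counting error, and folds on them are uncertain.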

Other observations

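The symbol Ifi27 was not found, but 3 genes with related names, side by side on chromosome 12, were measured; they are described here after their values were seen. In the authors' deposited table Ifi27l2b had 1223 in villus against 49.7 RPKM in ISC, above all of the 39 interferon response genes. Ifi27l2a had 14.1 in villus against 0.668 RPKM in ISC, and Ifi27l1 had 78.7 in villus against 13.6 RPKM in ISC, all 3 called higher in villus. Between Eed-null and wild-type villus none of the 3 was called: Ifi27l2b had 638 in Eed-null against 1052 RPKM in wild-type villus (q = 0.0704), Ifi27l1 had 47.7 in Eed-null against 67.7 RPKM in wild-type villus (q = 0.189), and Ifi27l2a had 24.0 in Eed-null against 12.1 RPKM in wild-type villus (q = 0.103 per the authors' deposited table).

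Genes of antigen presentation were abundant in villus. B2m, the light chain of MHC class I, had 2444 in villus against 412 RPKM in ISC, and H2-K1, a class I heavy chain gene, had 1226 in villus against 171 RPKM in ISC, both with q listed as 0 per the authors' deposited table. In Eed-null villus they stood at 2121 and 909 RPKM, against 2103 and 1055 RPKM in wild-type villus, and neither was called. The immunoproteasome gene Psmb8 had 73.2 in Eed-null against 111 RPKM in wild-type villus (q = 0.0716 per the authors' deposited table). B2m shares its locus entry with 2 other genes.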
